A study of Mus musculus with 6 samples.

Results

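Amino acid transporters of the plasma membrane were examined in mouse neural stem and progenitor cells (NSPCs) through 9 genes chosen by name, Slc7a1, Slc7a3, Slc7a5, Slc3a2, Slc1a4, Slc1a5, Slc38a1, Slc38a2 and Slc6a9. All 9 were matched by NCBI gene identifier among the 17254 genes listed for at least 1 of the 6 RNA-seq libraries. The cells were kept for 48 h in N2 medium with EGF and bFGF, either untreated (control, n = 2), with the superoxide-generating agent paraquat (PQ, n = 2; 5 µM where the labels give a dose) or with the thiol antioxidant N-acetylcysteine (NAC, n = 2; no dose in the labels). Control and PQ each had 1 library labelled as prepared by Illumina protocols and 1 labelled BGISEQ-500, whereas both NAC libraries were labelled BGISEQ-500. The Illumina-labelled libraries carried the labels C57BL/6 and "Ink/Ark knockout", and the labels of the other 4 gave neither a strain nor a genotype. The methods of the study describe a single immortalized Ink/Arf-/- culture derived from neonates that holds a mixture of stem cells and committed progenitors. Nothing in the labels says that libraries of a group came from separate cultures, so p-values measure only the spread between these libraries, which may be technical.

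Amino acids enter cells through carriers that differ in what they move and in what drives them. Slc3a2 encodes a glycoprotein heavy chain that brings light chains of the Slc7 family, among them the leucine transporter Slc7a5, to the cell surface, where they exchange 1 amino acid for another, while sodium-coupled carriers such as Slc38a2 load the cell with the glutamine that is exchanged. Many of these genes are known targets of ATF4, the transcription factor made when amino acids are scarce, and proliferating progenitors depend on leucine and glutamine uptake for growth signalling and protein synthesis.

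The expected counts, estimates that share ambiguous reads between genes, summed to 9849392 in the Illumina-labelled control library and 10040827 in the BGISEQ-labelled control library. The PQ libraries held 10388731 and 9680436, in the same order of labels, and the NAC libraries 10698241 and 9907726. Levels are given below as FPKM, which scales counts by transcript length and library total and so allows genes to be compared with each other. Changes are log2 fold changes from edgeR's quasi-likelihood test on rounded counts. Their standard error (SE) was back-calculated as the absolute log2 fold change over the square root of the test's F statistic. The test covered 11717 genes whose FPKM averaged 1 or more, and a gene was called at a Benjamini-Hochberg adjusted p under 0.05. The control libraries stood apart for several transporters, with Slc7a5 1.77 times as high in the Illumina-labelled one as in the other after normalization, whereas the larger value over the smaller was 1.08 in PQ and 1.00 in NAC. For the 8 tested transporters, changes against control are therefore also given within the libraries of 1 label.

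The cells carried the markers of their label. Of 7 neural stem or progenitor markers 6 passed the expression filter, and Fabp7, the most abundant, had between 741 and 913 FPKM in the 6 libraries. The exception was Prom1, with at most 4 counts in a library. The summed FPKM of these markers was 1126 and 1041 in control, 1104 and 1058 in PQ and 1198 and 1088 in NAC. Endothelial cells also carry much Slc7a5 and Slc3a2, but of 5 endothelial markers 0 passed the filter. Their summed FPKM lay between 0.22 and 0.62, the most abundant was Pecam1 with at most 0.54 FPKM, and Cdh5 and Kdr had at most 3 counts in every library. Of 5 mural or fibroblast markers 0 passed as well, with summed FPKM from 0.68 to 2.31 and Dcn as the most abundant. Aif1, Csf1r and Tmem119, which define microglia, had at most 3 counts in every library, although P2ry12 rose in NAC by a log2 fold change of 1.18 (SE 0.26, adjusted p = 0.0033 by edgeR), a call that ended without NAC replicate 1 (0.86, adjusted p = 0.09 by edgeR). The summed FPKM of the 5 microglial markers ran from 1.87 to 4.50. Cdkn2a, the Ink4a/Arf locus, had 137 and 162 expected counts in control, 120 and 130 in PQ and 130 and 131 in NAC. The tables give no counts by exon, so these reads do not check the labelled knockout.

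In control cells the transporters spanned a wide range of levels. Slc3a2 had the highest mean at 137 ± 40.8 FPKM (SD, n = 2), followed by Slc7a5 at 108 ± 41.7 and Slc38a2 at 99.7 ± 5.78 (SD, n = 2). The ranges of these neighbours over the libraries overlapped. Within each control library Slc3a2 (166 and 109 FPKM) was above both others. Slc7a5 (138 and 78.9) and Slc38a2 (95.6 and 104) changed places, so their order was not resolved. Slc38a1 came next at 41.8 ± 0.714 FPKM (SD, n = 2), then Slc1a4 at 36.2 ± 5.83, Slc7a1 at 26.1 ± 9.14, Slc6a9 at 12.3 ± 2.89 and Slc1a5 at 6.88 ± 0.601. Within this lower group only the ranges of Slc1a4 and Slc7a1 overlapped, although Slc1a4 was the higher in each control library. Slc7a3 was near the detection limit at 0.085 FPKM. In PQ and in NAC the order was another one. Slc38a2 was at the top with 81.8 ± 5.49 FPKM in PQ and 87.0 ± 0.785 in NAC (SD, n = 2), and Slc7a5, above Slc38a1 in control, was below it. In both treated groups, no neighbours in the order overlapped. The summed FPKM of the 9 genes was 536 and 402 in control, 246 and 251 in PQ, and 259 and 277 in NAC.

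**Figure D1:**
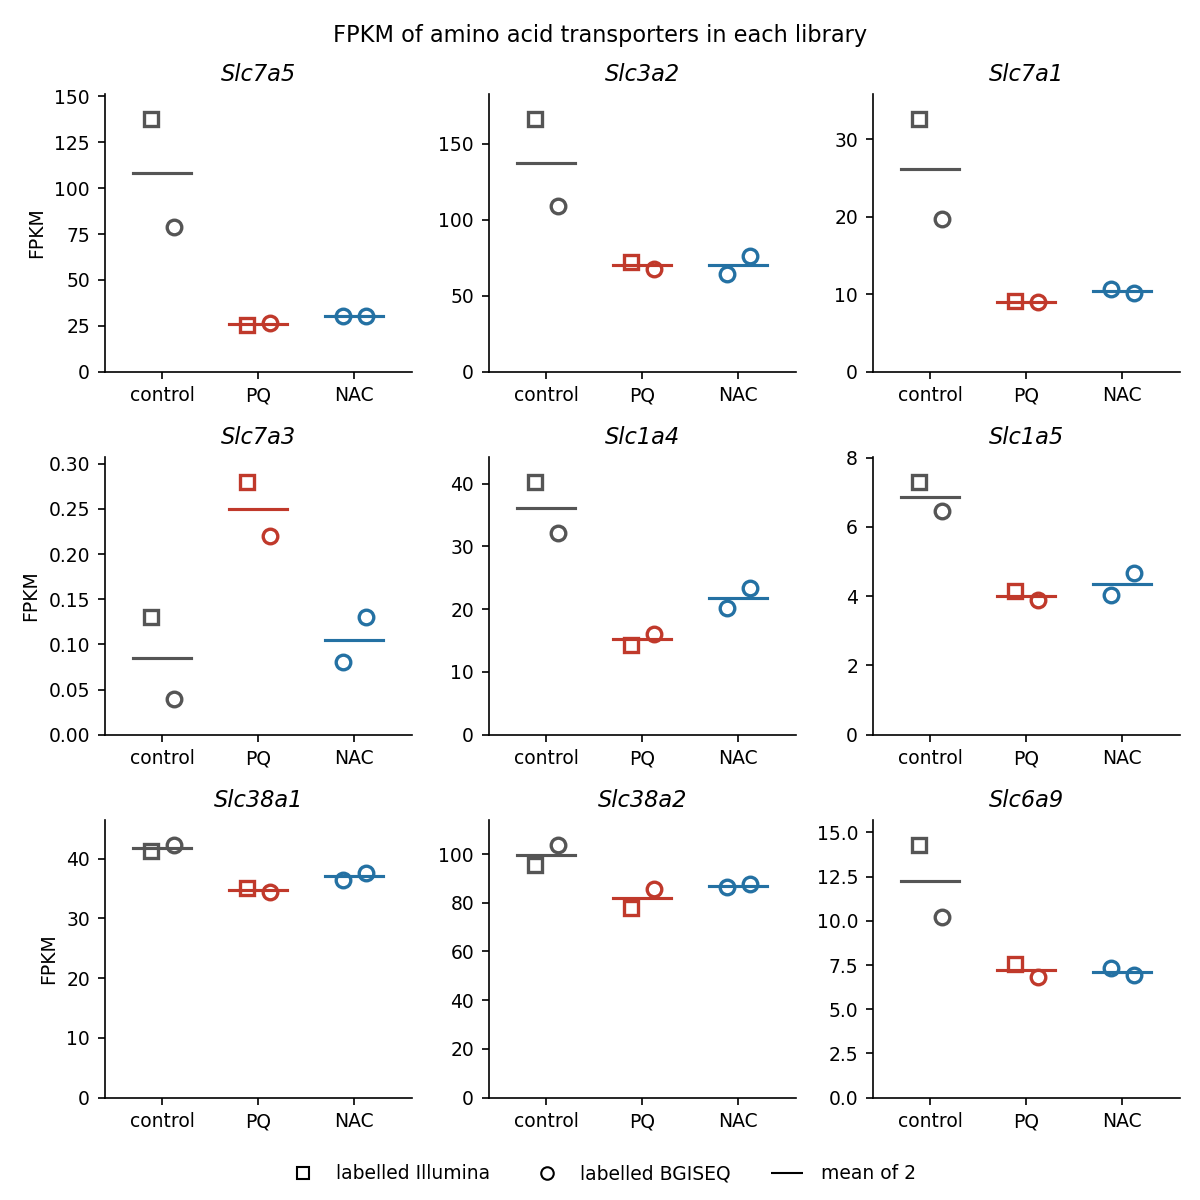
FPKM of each of the 9 transporters (vertical axes, each starting at 0) in control, PQ and NAC, with 1 marker per library, squares for Illumina-labelled and circles for BGISEQ-labelled libraries, and a line at the mean of 2. Slc7a5 lay at 138 and 78.9 in control and between 25.2 and 30.4 in the treated libraries, whereas Slc38a1 spanned only 34.5 to 42.3 over all 6.

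PQ lowered the transporter transcripts, and NAC lowered most of them too. Of the 8 transporters that passed the filter, 8 were called lower in PQ than in control, where 9.45% of the 11717 genes tested were called lower and 9.76% higher. NAC lowered 6 of the 8 against control, where 9.64% of all genes were called lower and 9.01% higher, and 0 were called higher in either comparison. The median log2 fold change of the 8 was -0.90 in PQ and -0.80 in NAC, beside a median of 0.00 over all genes tested in each comparison. These comparisons share the control libraries, so they are not independent of each other. By edgeR, 2250 genes changed in PQ against control (1143 higher, 1107 lower) and 2186 in NAC against control (1056 higher, 1130 lower). Counting only genes at least 2-fold lower, 4 of the 8 were called in PQ, beside 0.58% of all genes, and 3 of the 8 in NAC, beside 1.49%. These counts depend on control replicate 1, since without it only Slc7a5 was at least 2-fold lower in NAC (Slc7a1 at -0.96, Slc3a2 at -0.67), and in PQ Slc3a2 was not (-0.66). Slc3a2 lies at the cut in both comparisons, and missed it without PQ replicate 2 in PQ (-0.98) and without NAC replicate 1 in NAC (-0.91). Without PQ replicate 1 the PQ count over all genes was 866, with 6 transporters called. The NAC count was 1286 without NAC replicate 1, with 5 transporters called, and 1427 without NAC replicate 2.

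Slc7a5 (NCBI gene 20539, chr8:121881146-121907686 in GRCm38.p6) encodes the light chain that imports leucine and other large neutral amino acids. Its FPKM was 138 in the Illumina-labelled and 78.9 in the BGISEQ-labelled control library, 25.2 and 26.8 in the PQ libraries in the same order, and 30.1 and 30.4 in the NAC libraries. The control libraries lay far above the others and far from each other, with no overlap between control and either treatment. The log2 fold change of Slc7a5 was -2.09 in PQ (SE 0.17, adjusted p = 4.1e-07 by edgeR), a 4.25-fold fall. Only 22 of the 11717 genes tested had a lower value in that comparison. In NAC it was -1.89 (SE 0.17, adjusted p = 3.4e-07 by edgeR). Within the Illumina label the PQ value was -2.50 and within the BGISEQ label -1.56, and NAC within the BGISEQ label gave -1.42.

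Slc3a2 (NCBI gene 17254, chr19:8706882-8723369), the heavy chain that Slc7a5 needs to reach the membrane, had 166 and 109 FPKM in control, 72.0 and 67.8 in PQ and 64.1 and 76.0 in NAC. Both treated groups lay below both control libraries and overlapped each other. Its log2 fold change was -1.00 in PQ (SE 0.14, adjusted p = 1.0e-04 by edgeR) and -1.02 in NAC (SE 0.14, adjusted p = 4.4e-05 by edgeR). Without control replicate 1, the Illumina-labelled library, these became -0.66 and -0.67, and within the Illumina label PQ gave -1.26. Within the BGISEQ label PQ gave -0.68 and NAC -0.67. Its expected counts were fractional in all 6 libraries, as happens where reads are shared with other sequences, so its level is less certain than that of Slc7a5, whose counts were whole.

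Light chains were then set beside the heavy chain per library. Slc7a5 transcripts amounted to 0.828 and 0.726 of the FPKM of Slc3a2 in control, 0.350 and 0.394 in PQ, and 0.469 and 0.400 in NAC. The ratio was thus lower in each treated library than in either control library. The cystine and glutamate exchanger Slc7a11, another partner of Slc3a2, was the most abundant of the other listed transporters and showed no such drop, with 172 and 179 FPKM in control, 170 and 161 in PQ and 147 and 160 in NAC. Its log2 fold change was -0.11 in PQ (SE 0.09, adjusted p = 0.41 by edgeR) and -0.24 in NAC (SE 0.09, adjusted p = 0.056 by edgeR). NAC passed the threshold for this gene with DESeq2 (adjusted p = 0.035) and without the FPKM filter (adjusted p = 0.035 by edgeR). Slc7a11 had fractional counts in all 6 libraries. Of the summed FPKM of 6 light chains that pair with Slc3a2 (Slc7a5, Slc7a6, Slc7a7, Slc7a8, Slc7a10 and Slc7a11), Slc7a5 made up 42.6% and 29.0% in control, 12.2% and 13.5% in PQ, and 15.8% and 14.8% in NAC. The share of Slc7a11 went from 53.2% and 65.8% in control to 82.5% and 81.2% in PQ and 76.9% and 78.1% in NAC. Slc7a7 and Slc7a8 had at most 3 counts in every library. Shares of transcripts say nothing of protein at the membrane, which was not analysed here.

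**Figure D2:**
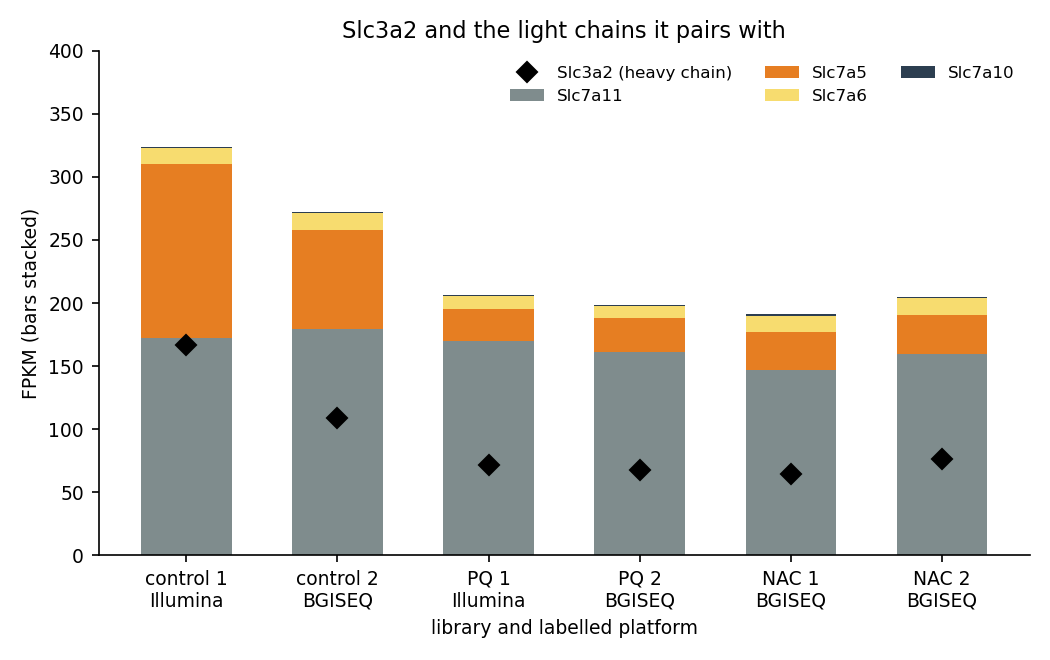
Stacked bars give the FPKM of light chains that pair with Slc3a2 in each library (horizontal axis: library and labelled platform), and diamonds the FPKM of Slc3a2 on the same axis; Slc7a7 and Slc7a8, at most 3 counts in a library, are not drawn. The Slc7a5 segment shrinks from 42.6% and 29.0% of the light chain sum in control to between 12.2% and 15.8% in the treated libraries, beside a Slc7a11 segment of 147 to 179 FPKM throughout.

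Among the cationic amino acid transporters, Slc7a1 (NCBI gene 11987, chr5:148327410-148399904), which takes up arginine and lysine, had 32.6 and 19.7 FPKM in control, 9.13 and 8.94 in PQ and 10.7 and 10.2 in NAC. The 3 groups did not overlap, and the PQ libraries were the lowest. Its log2 fold change was -1.56 in PQ (SE 0.16, adjusted p = 3.6e-06 by edgeR) and -1.38 in NAC (SE 0.16, adjusted p = 5.4e-06 by edgeR). PQ gave -1.88 within the Illumina label and -1.14 within the BGISEQ label, where NAC gave -0.96. Its expected counts were fractional in all 6 libraries. Slc7a3 (NCBI gene 11989, chrX:101079146-101090452), a related carrier of cationic amino acids, had only 3 and 1 expected counts in control, 7 and 5 in PQ and 2 and 3 in NAC, and did not pass the filter. The PQ counts were the highest of the 6. Summed over libraries, 12 counts in PQ against 4 in control gave a ratio of 2.92 after scaling, with an exact 95% interval from 0.884 to 12.4 that covers counting error only. A difference was not detectable at this depth, and without the FPKM filter the adjusted p was 0.44 by edgeR.

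The neutral amino acid exchangers Slc1a4 and Slc1a5 both fell. Slc1a4 (NCBI gene 55963, chr11:20302180-20332713), which carries serine, alanine and cysteine, had 40.3 and 32.1 FPKM in control, 14.2 and 16.1 in PQ and 20.2 and 23.4 in NAC. The groups stood in the order control, NAC, PQ without overlap. Its log2 fold change was -1.28 in PQ (SE 0.12, adjusted p = 1.4e-06 by edgeR) and -0.78 in NAC (SE 0.12, adjusted p = 1.0e-04 by edgeR). Within the Illumina label PQ gave -1.55, and within the BGISEQ label PQ gave -1.00 and NAC -0.60. Slc1a5 (NCBI gene 20514, chr7:16781334-16798274), which exchanges glutamine, was a low transcript in these cells, with 7.30 and 6.45 FPKM in control, 4.14 and 3.88 in PQ and 4.02 and 4.67 in NAC. Both treated groups lay below control and overlapped each other. Its fall was -0.80 in log2 in PQ (SE 0.16, adjusted p = 0.0015 by edgeR) and -0.71 in NAC (SE 0.16, adjusted p = 0.0033 by edgeR). The NAC call ended without NAC replicate 1 (-0.61, adjusted p = 0.057 by edgeR). PQ within the Illumina label gave -0.87, and within the BGISEQ label PQ gave -0.74 and NAC -0.61.

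The sodium-coupled glutamine transporters Slc38a1 and Slc38a2 moved least. Slc38a2 (NCBI gene 67760, chr15:96687392-96699728) had 95.6 and 104 FPKM in control, 77.9 and 85.6 in PQ and 86.4 and 87.5 in NAC. Slc38a1 (NCBI gene 105727, chr15:96571418-96643438), on the same chromosome, had 41.3 and 42.3 FPKM in control, 35.1 and 34.5 in PQ and 36.4 and 37.7 in NAC. For both genes all treated libraries lay below both control libraries, and here the Illumina-labelled control was the lower of the controls. Groups of 2 libraries were also apart in genes that were not called, such as Slc7a11 in PQ against control. The share of all genes with groups apart was not counted. In PQ the log2 fold change was -0.31 for Slc38a2 (SE 0.09, adjusted p = 0.023 by edgeR) and -0.29 for Slc38a1 (SE 0.09, adjusted p = 0.025 by edgeR). In NAC neither was called, at -0.24 for Slc38a2 (SE 0.09, adjusted p = 0.073 by edgeR) and -0.22 for Slc38a1 (SE 0.09, adjusted p = 0.095 by edgeR). The PQ calls of both ended without PQ replicate 1 (-0.23 with adjusted p = 0.28 for Slc38a2 and -0.29 with adjusted p = 0.16 for Slc38a1, by edgeR) and without control replicate 2 (-0.26 with adjusted p = 0.098 and -0.28 with adjusted p = 0.066, by edgeR). That of Slc38a1 also ended without PQ replicate 2 (-0.29, adjusted p = 0.12 by edgeR). Within the Illumina label PQ gave -0.34 for Slc38a2 and -0.28 for Slc38a1. Within the BGISEQ label the values were -0.28 and -0.31 in PQ and -0.29 and -0.23 in NAC, in the same order of genes.

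Slc6a9 (NCBI gene 14664, chr4:117835258-117869305), the sodium- and chloride-coupled glycine transporter best known from glia, had 14.3 and 10.2 FPKM in control, 7.58 and 6.82 in PQ and 7.31 and 6.91 in NAC. The treated groups overlapped each other and lay below control. PQ changed it by a log2 fold change of -0.79 (SE 0.15, adjusted p = 0.0011 by edgeR) and NAC by -0.83 (SE 0.15, adjusted p = 5.7e-04 by edgeR). PQ gave -0.96 within the Illumina label and -0.59 within the BGISEQ label, where NAC gave -0.56. Without control replicate 1 the PQ value was -0.52 (adjusted p = 0.02 by edgeR).

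**Figure D3:**
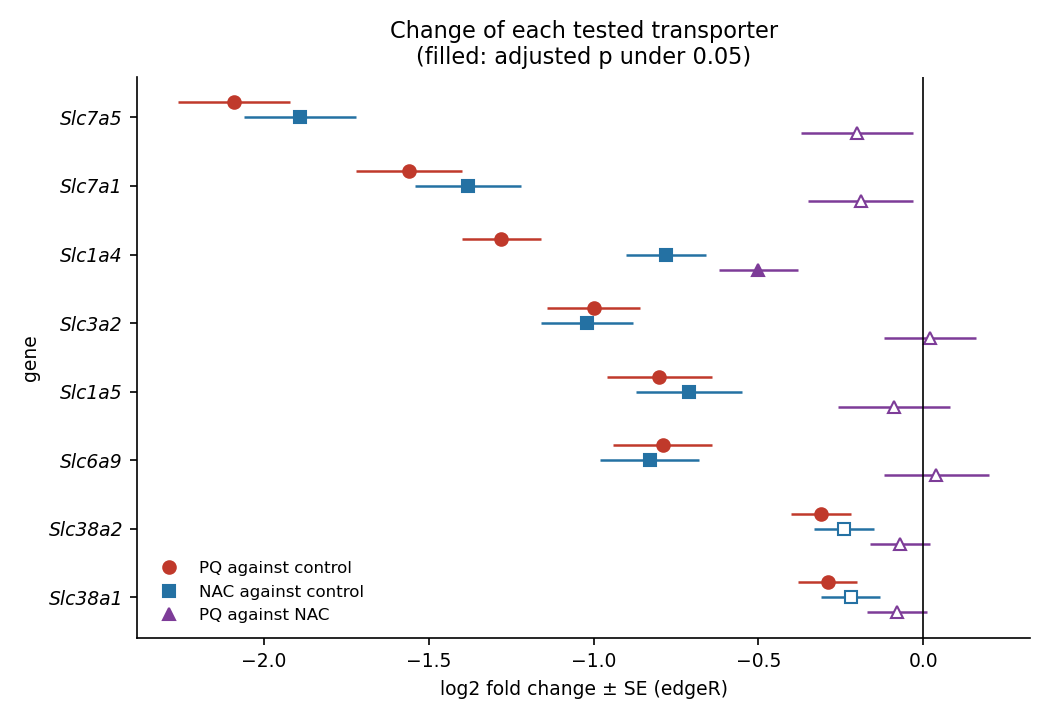
Log2 fold change with its SE (horizontal axis) of the 8 tested transporters (vertical axis) for PQ against control, NAC against control and PQ against NAC, filled where the adjusted p by edgeR was under 0.05. The PQ and NAC values against control run from -2.09 for Slc7a5 to -0.22 for Slc38a1, and in PQ against NAC only Slc1a4, at -0.50, is filled.

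The direct comparison of PQ with NAC asks whether an oxidant and an antioxidant left the transporters at different levels. Across the transcriptome this was the largest of the 3 differences, with 3708 genes called by edgeR, 1874 higher and 1834 lower in PQ, or 2343 without PQ replicate 1 and 2407 without NAC replicate 1. Of the 8 tested transporters 1 was called lower in PQ, beside 15.7% of all genes, and 0 were called higher, beside 16% of all genes. The median log2 fold change of the 8 was -0.09, beside 0.00 over all genes. Slc1a4 was the gene called, at -0.50 (SE 0.12, adjusted p = 0.0042 by edgeR), or -0.40 within the BGISEQ label. The call ended without PQ replicate 1 (-0.40, adjusted p = 0.077 by edgeR) and without NAC replicate 2 (-0.40, adjusted p = 0.062 by edgeR). Slc7a5 gave -0.20 (SE 0.17, adjusted p = 0.41 by edgeR) and Slc7a1 -0.19 (SE 0.16, adjusted p = 0.42 by edgeR), with both PQ libraries below both NAC libraries for each gene. The remaining 5 lay between -0.09 and 0.04. A p that misses the threshold does not show that the treatments left these transcripts equal.

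The other amino acid transporters were called in both directions. Of 44 further genes listed for this function, 33 had a row here and 19 were tested. In PQ against control, 3 were called higher and 2 lower, beside 9.76% higher and 9.45% lower over all genes, with a median log2 fold change of 0.12. So few calls among 19 genes do not set the list apart from all genes in PQ. Slc43a2, a leucine carrier outside the Slc3a2 family, rose by 0.84 (SE 0.19, adjusted p = 0.0041 by edgeR), and Ctns, which exports cystine from lysosomes, rose by 0.65 (SE 0.17, adjusted p = 0.013 by edgeR). Slc1a3, the glutamate transporter of radial glia and astrocytes, fell by a log2 fold change of -0.48 (SE 0.09, adjusted p = 0.0016 by edgeR) and Slc7a6, a light chain for arginine, by -0.39 (SE 0.11, adjusted p = 0.015 by edgeR). Slc6a17 was the remaining gene called, at 0.36 (SE 0.12, adjusted p = 0.048 by edgeR). With DESeq2 the calls of Ctns (adjusted p = 0.051) and Slc6a17 (adjusted p = 0.11) ended. Limma at the pseudocounts of 1 and 0.1 ended those of Slc43a2 (adjusted p = 0.071 and 0.074) and Slc6a17 (adjusted p = 0.12 and 0.13). With only the 4 libraries compared, Slc6a17 missed the threshold too (0.36, adjusted p = 0.053 by edgeR). Among the BGISEQ-labelled libraries alone none of the 19 was called, Slc1a3 included (-0.32, adjusted p = 0.16 by edgeR). Without PQ replicate 1 only Slc1a3 was called, and the calls of Slc43a2 (0.59, adjusted p = 0.12), Ctns (0.54, adjusted p = 0.15), Slc7a6 (-0.42, adjusted p = 0.081) and Slc6a17 (0.23, adjusted p = 0.42) ended by edgeR. That of Ctns also ended without control replicate 1 (0.56, adjusted p = 0.079 by edgeR) and that of Slc7a6 without PQ replicate 2 (-0.36, adjusted p = 0.11 by edgeR). Slc6a17 missed the threshold also without control replicate 1 (0.23, adjusted p = 0.28 by edgeR), NAC replicate 1 (adjusted p = 0.056 by edgeR) or NAC replicate 2 (adjusted p = 0.058 by edgeR), and with the labelled platform as a replicate block (0.36, adjusted p = 0.058 by edgeR).

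NAC moved the same list in both directions, with 5 called higher and 3 lower, beside 9.01% and 9.64% over all genes, and a median of -0.01. Slc38a3, a glutamine transporter of astrocytes, had 17.7 and 22.2 FPKM in control, 22.8 and 18.8 in PQ and 43.8 and 50.3 in NAC. Both NAC libraries were thus far above the rest, and the log2 fold change of NAC over control was 1.19 (SE 0.12, adjusted p = 1.1e-06 by edgeR). Ctns rose by 0.80 in NAC (SE 0.17, adjusted p = 0.0024 by edgeR). The taurine transporter Slc6a6 had 74.6 and 88.0 FPKM in control, 91.3 and 92.8 in PQ and 51.1 and 53.2 in NAC. It was lowest in NAC, with a log2 fold change of -0.69 against control (SE 0.09, adjusted p = 3.7e-05 by edgeR), and Slc6a17 gave -0.98 (SE 0.13, adjusted p = 2.9e-05 by edgeR). Slc1a3, with 106 and 92.0 FPKM in control, 71.3 and 73.7 in PQ and 126 and 125 in NAC, was below control in PQ and above it in NAC, where its log2 fold change was 0.29 (SE 0.09, adjusted p = 0.034 by edgeR). That call ended without control replicate 2 (0.19, adjusted p = 0.25 by edgeR), without either PQ library (0.29, adjusted p = 0.052 and 0.053 by edgeR) and without either NAC library (0.28, adjusted p = 0.15, and 0.31, adjusted p = 0.11, by edgeR). It ended too with the labelled platform as a replicate block (0.33, adjusted p = 0.064 by edgeR).

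Astrocyte markers moved beside these genes. Of 5 tested, NAC raised 2 and lowered 1, beside 9.01% higher and 9.64% lower over all genes. Gfap rose by a log2 fold change of 1.23 (SE 0.21, adjusted p = 3.1e-04 by edgeR) and Aqp4 by 1.76 (SE 0.22, adjusted p = 1.4e-05 by edgeR), while Gja1, the most abundant, fell by a log2 fold change of -0.43 (SE 0.09, adjusted p = 0.0022 by edgeR). The summed FPKM of the 5 was 133 and 129 in control, 160 and 171 in PQ and 107 and 106 in NAC. In PQ, Aldh1l1 rose by 1.17 (SE 0.26, adjusted p = 0.0035 by edgeR) and Gja1 by 0.31 (SE 0.09, adjusted p = 0.02 by edgeR). Both ended without PQ replicate 1, at 0.93 (adjusted p = 0.091 by edgeR) and 0.38 (adjusted p = 0.055 by edgeR), and Gja1 also ended without control replicate 2 (0.28, adjusted p = 0.076 by edgeR) and without PQ replicate 2 (0.24, adjusted p = 0.19 by edgeR). The neuronal marker Map2 rose in NAC by 0.77 (SE 0.10, adjusted p = 1.1e-05 by edgeR). Tubb3, another neuronal marker, did not pass the filter and was not tested, with 2.38 and 1.30 FPKM in control, 0.72 and 0.47 in PQ and 0.32 and 0.44 in NAC. Its values were thus lower in all treated libraries, the opposite of Map2 in NAC. The summed FPKM of the neuronal list, nearly all of it Map2, was 38.0 and 35.7 in control, 33.5 and 34.6 in PQ and 65.2 and 58.5 in NAC. That of the oligodendrocyte progenitor list was 651 and 752 in control, 767 and 665 in PQ and 814 and 924 in NAC, most of it Olig1 and Olig2, and Sox10 had at most 3 counts in every library. The oligodendrocyte list stayed between 0.85 and 1.66. In bulk RNA, fewer cells of a type and less RNA per cell cannot be told apart, and the part of cell composition in the transporter changes was not tested.

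Few of the genes that sense amino acids were called. Of 33 listed genes 31 were tested, with 1 called higher and 1 lower in PQ, beside 9.76% and 9.45% over all genes, and likewise in NAC, beside 9.01% and 9.64%. The medians were 0.07 and -0.01. None was called in PQ without PQ replicate 1 or PQ replicate 2, and only 1 without control replicate 1, while 6 were called in NAC without control replicate 2. Sesn2, the leucine sensor that restrains mTORC1 when leucine is low, had 20.0 and 14.0 FPKM in control, 13.0 and 11.4 in PQ and 6.17 and 7.56 in NAC. It was lowest in NAC, with no overlap among the groups. NAC lowered it by a log2 fold change of -1.35 (SE 0.16, adjusted p = 7.9e-06 by edgeR) and PQ by -0.50 (SE 0.15, adjusted p = 0.028 by edgeR). The PQ value became -0.21 without control replicate 1 (adjusted p = 0.41 by edgeR), -0.58 without PQ replicate 1 (adjusted p = 0.079 by edgeR) and -0.42 without PQ replicate 2 (adjusted p = 0.16 by edgeR). The PQ call also ended among the BGISEQ-labelled libraries alone (-0.29, adjusted p = 0.4 by edgeR), with DESeq2 (adjusted p = 0.056) and with limma at either pseudocount (adjusted p = 0.12). Lamtor1, a lysosomal scaffold of mTORC1 and the most abundant of the list, had 75.4 and 82.8 FPKM in control, 92.1 and 78.7 in PQ and 85.4 and 96.4 in NAC.

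Most of ATF4 and its targets outside transport fell too. All 22 listed genes were tested. PQ lowered 17 and raised 1, Cebpb, beside 9.45% lower and 9.76% higher over all genes, with a median log2 fold change of -0.89. Each gene called lower in PQ fell less within the BGISEQ label than within the Illumina label. The log2 values were -0.89 against -1.77 for Asns and -0.32 against -1.52 for Ddit3. Atf3, not called in PQ, was at 0.31 within the BGISEQ label and -1.58 within the Illumina label. NAC lowered 21 and raised 0, beside 9.64% and 9.01% over all genes, with a median of -1.37. Chac1, which degrades glutathione, had 34.0 and 20.4 FPKM in control, 5.02 and 4.54 in PQ and 2.14 and 2.63 in NAC. Asns, asparagine synthetase, had 161 and 98.4 in control, 48.8 and 53.2 in PQ and 31.4 and 28.0 in NAC. For both genes the groups stood in the order control, PQ, NAC without overlap, the reverse of the treatments' order for Slc1a4. In PQ against NAC, Chac1 gave a log2 fold change of 1.02 (SE 0.29, adjusted p = 0.011 by edgeR) and Asns 0.80 (SE 0.17, adjusted p = 0.0012 by edgeR), and of the 22 genes 11 were called higher in PQ and 0 lower, beside 16% and 15.7% over all genes. The difference from the 8 transporters was not tested. Psat1, the serine synthesis enzyme with 245 and 218 FPKM in control, 127 and 141 in PQ and 136 and 130 in NAC, was at a like level in both treatments, as Slc3a2 was, with a log2 fold change of 0.03 in PQ against NAC (SE 0.10, adjusted p = 0.83 by edgeR).

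The list medians per library show where the controls differ. Taken as log2 normalized counts (CPM) minus the control mean, the median of the 8 transporters was 0.21 in the Illumina-labelled and -0.21 in the BGISEQ-labelled control library, -0.85 and -0.91 in PQ, and -0.83 and -0.76 in NAC. The ATF4 list gave 0.28 and -0.28 in control, -0.92 and -0.81 in PQ, and -1.38 and -1.24 in NAC. Both lists were thus higher in the Illumina-labelled control library, and the treated libraries lay below the lower control in each case. The same split of controls was not seen in the other transporters, at -0.04 and 0.04. Without control replicate 1 the median log2 fold change of the 8 transporters was -0.68 in PQ and -0.60 in NAC. Whether the label, the culture or another property of that library sets the control difference cannot be told apart, since each label holds 1 control library.

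**Figure D4:**
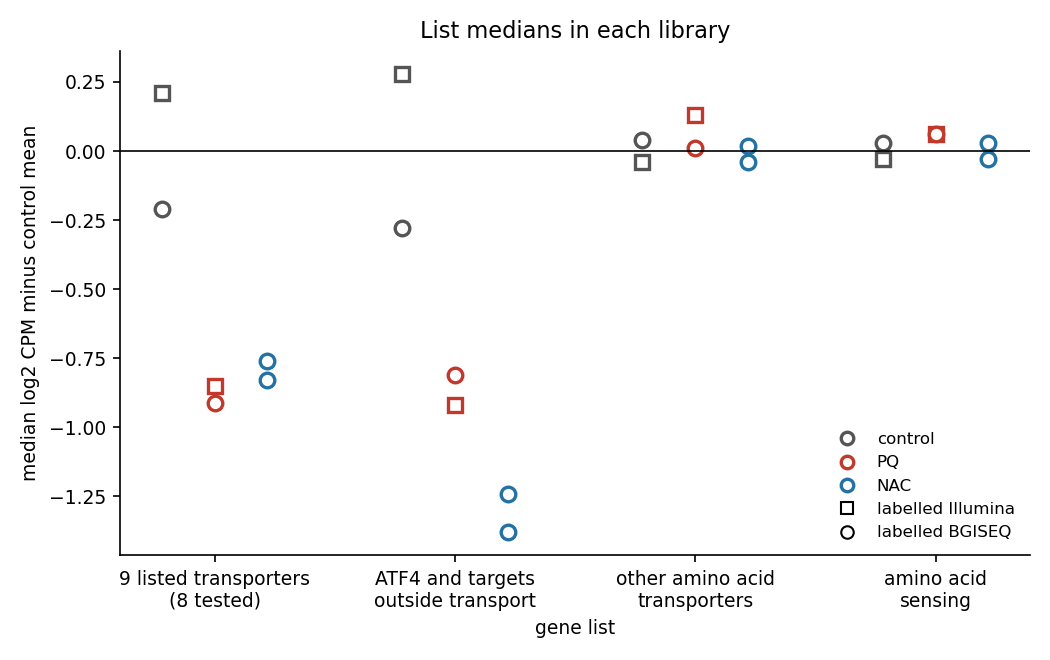
Median over each of 4 gene lists (horizontal axis) of log2 CPM minus the control mean (vertical axis), 1 marker per library, coloured by group and shaped by the labelled platform. The transporters lie at -0.91 to -0.76 in all 4 treated libraries, the ATF4 list at -0.92 and -0.81 in PQ and at -1.38 and -1.24 in NAC, and the other transporters and the sensing genes between -0.04 and 0.13.

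Of all tested genes outside the 8, those nearest to the median profile of the transporters over the 6 libraries were named by root mean square distance of log2 CPM centred on each gene's mean. Arhgef2 was nearest at 0.0730, followed by Phgdh at 0.0750, Serpinh1 at 0.114, Ddr2 at 0.117 and Tmem107 at 0.119, beside a median distance of 0.461 over 11709 genes. Arhgef2 lay at 0.29 and -0.29 in control, -0.76 and -0.81 in PQ and -0.82 and -0.79 in NAC on the scale of the list medians. Phgdh, the enzyme that opens serine synthesis and a gene of the ATF4 list, lay at 0.17 and -0.17, -0.94 and -1.00, and -0.77 and -0.67. Their likeness to the transporters follows from how they were picked.

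Because many transporter genes are known ATF4 targets, promoter windows were searched on both strands for the C/EBP-ATF response element core TGATGNAA, 8 letters long. RefSeq windows of GRCm38.p6, from 250 bases before to 50 bases after a start site, were found for 5 of the 9 transporters (8 windows) and 20 of the 22 genes of the ATF4 list (23 windows). The letters occurred in 1 of the 8 windows, that of Slc1a4, and in 7 of the 23, beside 3.97% of all 32851 windows. The stretches of 30 bases below show the match of Slc1a4 beside those of the 3 matched genes of the ATF4 list with the largest falls in NAC, each on its gene's strand with the match in capitals, which reads as the reverse complement of the core where the core lies on the opposite strand.
Slc1a4: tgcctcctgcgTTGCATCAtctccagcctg
Chac1: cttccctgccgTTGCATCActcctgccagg
Trib3: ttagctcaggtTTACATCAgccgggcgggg
Asns: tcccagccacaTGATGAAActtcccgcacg
The Slc1a4 stretch, chr11:20332699-20332728 on the minus strand, carries the match from -4 to 4 around the annotated start, so that it straddles the first base of the transcript. In Chac1, at chr2:119351038-119351067 on the plus strand, the match lies from -193 to -186, and in Asns, at chr6:7693214-7693243 on the minus strand, from -23 to -16. In Trib3, at chr2:152344028-152344057 on the minus strand, it lies from 15 to 22, within the transcribed part. The Slc1a4 and Chac1 matches have the same 8 letters. The antioxidant response element core TGACNNNGC, 9 letters long, occurred in 4 of the 8 transporter windows, those of Slc7a1, Slc38a2 and Slc6a9, and in 5 of the 23 windows of the ATF4 list, beside 12.4% of all windows. A match in a window is a description of letters and not a sign of binding, and windows without a match say nothing of sites elsewhere in the gene.

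These results rest on 2 libraries per group from what the methods describe as 1 culture, with each label holding 1 control library. Spread between animals was not measured, and whether libraries of a group came from separate cultures is not stated in the labels. NAC was sequenced under 1 label only and is compared with an Illumina-labelled control as well as a BGISEQ-labelled one. Treatment lasted 48 h in all groups, and earlier times were not analysed here. Transcripts were measured and not transport, membrane protein or amino acid levels. The cause of the lower transporter transcripts was not tested.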

How the data were processed

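RNA was measured in 6 libraries of mouse NSPCs. The authors deposited, per gene and library, transcript lengths, which are another unit (other) and were not used in tests, and the authors' expected count and FPKM. The submitters' processing notes name mm10, HISAT2 2.0.4, Bowtie2 2.2.5 and RSEM for the 4 BGISEQ-labelled libraries, and mm9, TopHat2 2.0.11 and Cufflinks 2.1.1 for the Illumina-labelled ones. All 6 deposited tables nevertheless have the same columns and, for every gene, the same transcripts. Strand use in counting is not given in the sources used here. Genes without a row in a table were taken as 0. Symbols from RefSeq (GRCm38.p6) matched 17199 of 17254 genes, and positions are those of that assembly, the mm10 build named for 4 libraries.

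Expected counts were rounded, scaled by TMM and tested with edgeR 4.0.16 in R 4.3.3 (quasi-likelihood, all 6 libraries, no covariates). The 11717 genes averaging 1 FPKM or more were tested, the Benjamini-Hochberg threshold was 0.05, and the procedure was tested on simulated data. Totals ran from 9680436 to 10698241, and with 2 libraries a group the spread rests on few values. Figures and summaries used Python 3.11.15. Alternatives were DESeq2 1.42.0 or its size factors, limma 3.58.1 on log2(FPKM + 1) or log2(FPKM + 0.1), no FPKM filter, a 2-fold minimum, fewer libraries, and the labelled platform as a replicate block. Across genes, deviations from the group mean correlated at -0.08 between control and PQ of the same label, the pairing that the labels give.

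All 9 transporters are named. From each further list the rule named up to 4 called genes of the largest absolute change against control in PQ and in NAC, the 2 genes of highest mean FPKM, Cdkn2a, and the 5 genes nearest in profile. Of these, the ones printed, and Cebpb, Ddit3 and Atf3 besides, were picked after their values were seen. The transporters and lists were chosen with earlier results of these data known. Values of 1 further gene that the rule names are not reported here.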

Additional observations from a re-analysis of the deposited data

How the results depend on the processing

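Slc7a5, Slc7a1, Slc3a2, Slc1a4 and Slc6a9 were called lower than control in PQ and in NAC under all 14 alternatives run for single genes, and Slc1a5 likewise except in NAC without NAC replicate 1. The Slc38a1 and Slc38a2 calls in PQ also ended among the BGISEQ-labelled libraries (adjusted p = 0.18 and 0.24 by edgeR) and with limma (adjusted p from 0.062 to 0.07), which left 6 transporters called. The labelled platform as a replicate block changed no call of the 8 transporters, but of the other transporters it ended those of Slc6a17 in PQ (adjusted p = 0.058 by edgeR) and Slc1a3 in NAC (adjusted p = 0.064 by edgeR) and added Slc43a2 in NAC (0.66, adjusted p = 0.037 by edgeR). Leaving out 1 library moved the genes called from 866 to 2206 in PQ against control, 1286 to 2126 in NAC against control and 2343 to 4207 in PQ against NAC. The transporters called then ranged from 6 to 8, 5 to 6 and 0 to 1, and their median from -1.15 to -0.68, -1.00 to -0.60 and -0.12 to -0.06. With the BGISEQ-labelled libraries alone, 993 genes were called in PQ against control, with transporter medians of -0.71 in PQ and -0.60 in NAC. A 2-fold minimum left 210, 324 and 578 genes and 4, 3 and 0 transporters, by its own construction. The causes of the other shifts were not tested.

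Some values changed sign. In PQ against NAC, Slc3a2 went to -0.15 and Slc6a9 to -0.13 with the replicate block, and to -0.01 and -0.03 among the BGISEQ-labelled libraries, where Slc38a2 went to 0.01. Without 1 library, Slc3a2 ranged from -0.09 to 0.14, Slc6a9 from -0.03 to 0.10, Slc38a2 from -0.15 to 0.01 and Slc1a5 from -0.19 to 0.01. In PQ against control, the BGISEQ-labelled libraries gave 0.11 for Nupr1, -0.08 for Lamtor1, 0.24 for Aqp4, -0.10 for Olig1 and -0.24 for Slc38a3. Without 1 library, Nupr1 ranged from -0.95 to 0.12, Lamtor1 from -0.02 to 0.18, Rragb from -0.06 to 0.13, Aqp4 from -0.49 to 0.14 and Gfap from -0.23 to 0.15. Fabp7 ranged from -0.04 to 0.08, Olig1 from -0.01 to 0.34 and Slc38a3 from -0.10 to 0.20. In NAC against control, Slc7a6 went to 0.01 with the block and 0.04 with limma at either pseudocount, and ranged from -0.04 to 0.02 without 1 library. None of these genes was called in the result they depart from, but Nupr1, at -0.51 there (adjusted p = 0.081 by edgeR), was called without the FPKM filter (-0.51, adjusted p = 1.9e-05 by edgeR) and without control replicate 2 (-0.95, adjusted p = 8.7e-08 by edgeR), and Olig1 was called without control replicate 2 (0.34, adjusted p = 0.044 by edgeR).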
